A study of Homo sapiens with 6 samples.

Results

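The 34 genes described here carry glucose into the cell and through glycolysis: 5 glucose transporters, 16 glycolytic enzymes, 4 enzymes that make or remove fructose 2,6-bisphosphate, 4 genes of lactate formation and transport, 4 pyruvate dehydrogenase kinases, and HIF1A. They were taken by gene symbol from a list that sets no threshold on a measured value. That list was chosen with earlier results of these data known, so counts set beside those of all genes are descriptions only. All 34 were found among the 58735 genes of the count table. RNA of UE7T-9 cells, an established line of human mesenchymal stem cells from bone marrow, was measured by mRNA-seq in 3 control libraries (genotype WT) and 3 libraries of the UE7T-9 SRRM4 KO line, in which a lentiviral CRISPR vector targeted SRRM4, a splicing factor. The KO line is 1 clone grown from a single cell after puromycin selection, and the study describes its SRRM4 protein as reduced and not as lost. Both groups were kept in DMEM. Whether the control cells carried an empty vector, and how much glucose or oxygen the cultures had, is not given in the sources used here. The study gives a minimum number of repeats for its experiments in general, but not whether the libraries of a group came from separate cultures, so every p-value below measures only the spread between these libraries.

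As background, glucose enters most cells through facilitative transporters of the SLC2A (GLUT) family, is trapped by hexokinase and is split into triose phosphates, which are then oxidised to pyruvate with a gain of ATP. Pyruvate is either carried into mitochondria and turned into acetyl-CoA by the pyruvate dehydrogenase complex, which the PDK kinases inhibit, or is reduced to lactate and exported by the monocarboxylate transporters. Many of these genes are known targets of the transcription factor HIF-1, and mesenchymal stem cells in culture are known to rely strongly on glycolysis.

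Levels are CPM, a gene's counts scaled to a common library size after TMM normalization, and levels of different genes are compared only per kilobase of exon. That length covers all annotated exons of a gene, whichever transcripts were present, so orders and shares between genes depend on it. The libraries held 21496117 to 23868323 counts, so that 3 counts, the limit a count of 0 allows, equal 0.123 to 0.139 CPM. SRRM4 had 0 counts in all 6 libraries, and the knockout could therefore not be checked from its RNA. Control replicate 1 stood apart: 22403 genes had a count there, against 20613 and 20674 in the other controls, and results that depended on it are given without it. All 5 mesenchymal markers were present in both groups, but not at one level. VIM ran from 832 to 908 CPM in control and from 1074 to 1167 CPM in KO, and NT5E from 330.0 to 366 CPM and from 483 to 499 CPM, both called higher. ENG (224 to 259 CPM and 185 to 199 CPM), THY1 (123 to 155 CPM and 23.8 to 28.8 CPM) and COL1A2 (11774 to 12581 CPM and 3515 to 3892 CPM) were called lower. Their sum, mostly COL1A2, ran from 13395 to 14208 CPM in control and from 5389 to 5731 CPM in KO. Of the markers of other cell types, PTPRC, CD79A, EPCAM, PECAM1 and CDH5 had at most 5 counts in any library. KRT18 (76.0 to 89.2 CPM) and CD14 (14.7 to 17.5 CPM) were detected at like levels in both groups, and CD34, VWF and CDH1 stayed under 5 CPM. Summed over each list, the haematopoietic markers ran from 19.7 to 21.2 CPM in control and from 17.9 to 21.1 CPM in KO, and the endothelial ones from 0.941 to 2.18 CPM and from 1.03 to 1.15 CPM. The corresponding sums of the epithelial markers were 76.6 to 91.0 CPM and 88.2 to 89.5 CPM.

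Of the 34 genes, 33 had enough counts to be tested, and 18 rose and 4 fell in SRRM4 KO (edgeR quasi-likelihood test, Benjamini-Hochberg adjusted p under 0.05 over 15341 genes). Among all tested genes 20.7% rose and 20.9% fell, or 41.6% in either direction. The median log2 fold change (KO over control) of the 33 genes was 0.41, with quartiles of 0.08 and 0.76, whereas that of all tested genes was -0.01, with quartiles of -0.37 and 0.33. The 3 KO libraries all lay above the 3 control libraries for 19 of the genes and all below them for 5, where 25.9% of all tested genes lay above and 25.9% below, 51.8% in all. Rises beyond 2-fold (log2 fold change over 1 and called) were seen for 4 genes, the monocarboxylate transporter SLC16A3, the glucose transporter SLC2A1, the fructose 2,6-bisphosphate enzyme PFKFB4 and the enolase ENO2, where 5.45% of all tested genes rose that far. Falls beyond 2-fold were seen for PFKFB2 and SLC2A6, where the background was 7.14%. When the test itself required a change beyond 2-fold, SLC16A3 alone passed.

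**Figure D1:**
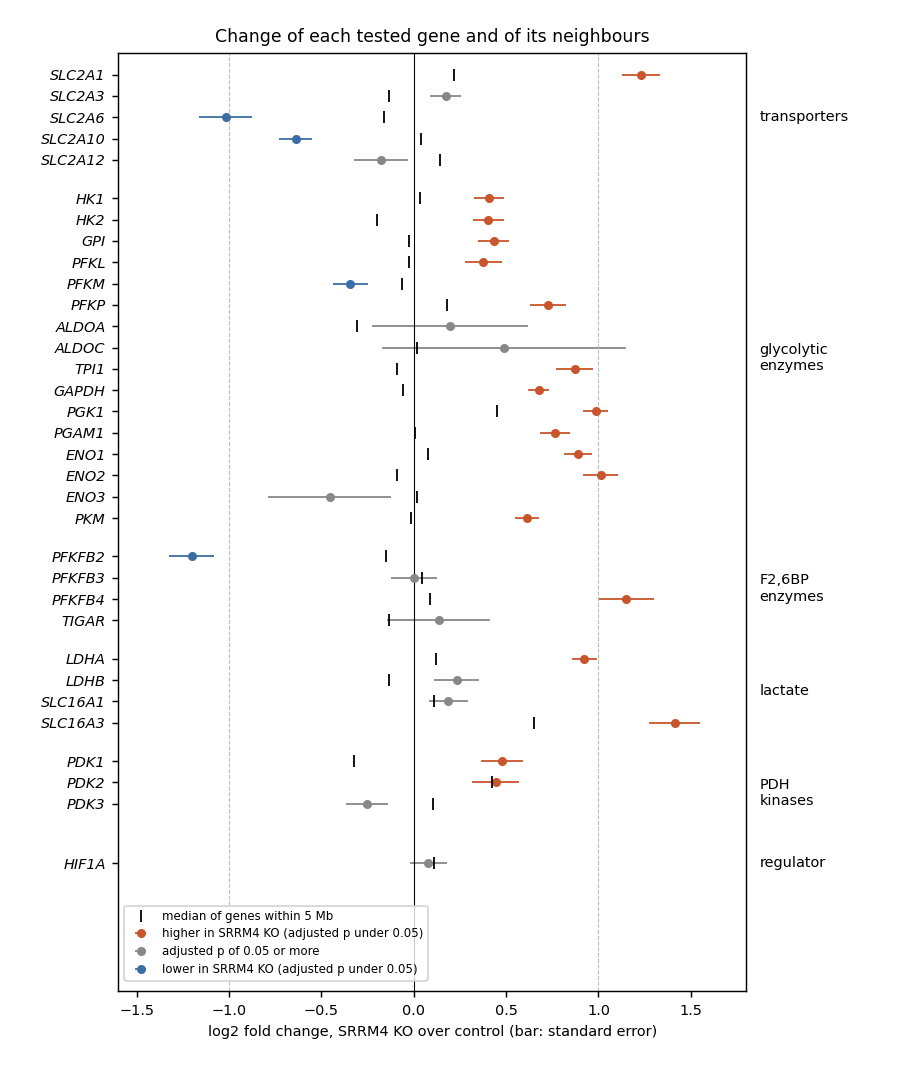
Log2 fold change (KO over control) of the 33 tested genes by role, with the standard error of the fit as bars, coloured by call; black ticks mark the median log2 fold change of the other tested genes within 5 Mb, and dashed lines mark 2-fold. The enzymes from TPI1 to PKM lie between 0.61 and 1.01 apart from ENO3, while the transporters and the fructose 2,6-bisphosphate enzymes lie on both sides of 0.

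The transporters did not move as one. SLC2A1 (GLUT1), the transporter of basal glucose uptake in most cells, read 80.5, 98.6 and 104 CPM in the 3 control libraries and 229, 235 and 199 CPM in the 3 KO libraries. Every KO library was above every control library, a 2.35-fold rise (log2 fold change 1.23, SE 0.10, adjusted p = 1.99e-07). SLC2A3 (GLUT3), a transporter of high affinity for glucose, read 109, 104 and 109.9 CPM in control and 122, 114 and 127 CPM in KO. These groups did not overlap either, but the difference was small and missed the threshold (log2 fold change 0.17, SE 0.083, adjusted p = 0.111). Without control replicate 1 it passed narrowly, with an adjusted p of 0.0478.

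SLC2A6 (GLUT6), found on lysosomal membranes, went the other way, with 22.9, 27.6 and 27.6 CPM in control and 11.1, 12.4 and 15.1 CPM in KO. It fell 2.03-fold (log2 fold change -1.02, SE 0.14, adjusted p = 3.96e-05). The fall stayed called but came in under 2-fold without control replicate 2, without control replicate 3 and without KO replicate 1, at log2 fold changes of -0.98, -0.98 and -0.93. SLC2A10 (GLUT10), a transporter of internal membranes whose loss causes arterial tortuosity, read 69.8, 72.2 and 71.7 CPM in control and 48.6, 42.8 and 45.8 CPM in KO. It also fell, with no overlap (log2 fold change -0.64, SE 0.092, adjusted p = 4.51e-05). SLC2A12 (GLUT12) was the lowest of the transporters per kilobase and did not pass (log2 fold change -0.18, SE 0.15, adjusted p = 0.364). Its exons share 38.9% of their bases with a gene on the other strand, TBPL1, so this level is uncertain. Summed over the 5 transporters, control held 311 ± 14.8 CPM and KO held 412 ± 12.9 CPM (SD, n = 3 each).

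Since one transporter rose and others fell, the make-up of the family shifted. Per kilobase of exon, SLC2A1 went from 32.3% ± 2.53 in control to 57.3% ± 3.34 in KO of the 5 transporters (SD, n = 3 each). SLC2A10 went from 23.1% ± 0.897 in control to 11.2% ± 0.735 in KO, and SLC2A6 from 11.9% ± 0.666 in control to 4.47% ± 0.866 in KO. SLC2A1 and SLC2A3 were thus close in control, at 19.96 and 17.4 CPM per kilobase, and well apart in KO, at 46.9 and 19.7 CPM per kilobase.

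Glycolytic enzymes rose in 12 of 16 cases and fell in 1, where 20.7% of all tested genes rose and 20.9% fell. The other 3 did not pass, among them both aldolases, which could not be judged. The median log2 fold change of the 16 was 0.55. Their summed level was 6164, 6927 and 6901 CPM in control and 10962, 11136 and 10526 CPM in KO, a ratio of 1.63 (exact two-sided permutation test, p = 0.10, the smallest that 3 libraries against 3 allow). They made up 0.652% of all counts in control and 1.11% in KO. The sum holds ALDOA at only 1.17 CPM in control and 1.35 CPM in KO, a level that is uncertain for the reason given below. Leaving ALDOA aside, the order of the most abundant enzymes per kilobase was the same in both groups. GAPDH came first (537 in control and 859 in KO, in CPM per kilobase), then ENO1 (269 and 498) and PKM (212 and 324). This order rests on lengths of 2981 bases for GAPDH, 5276 for ENO1 and 8571 for PKM, each over all annotated exons.

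Among the 8 enzymes of the upper steps of the pathway, from glucose to the triose phosphates, 5 rose and 1 fell. Of all tested genes 20.7% rose and 20.9% fell. The median log2 fold change of the 8 was 0.41, both aldolases included. The hexokinases, which phosphorylate glucose on entry, rose by like amounts: HK1 read 228, 246 and 267 CPM in control and 345, 331 and 307 CPM in KO, and HK2, the form raised in many tumours, read 119.7, 126 and 113 CPM and 166, 155 and 153 CPM. Their log2 fold changes were 0.41 and 0.40 (SE 0.083 and 0.083, adjusted p = 0.00106 and 0.00112), and HK1 kept 66.5% ± 2.63 of the pair per kilobase in control and 66.6% ± 0.677 in KO. GPI, the glucose-6-phosphate isomerase, rose from 130.3 ± 6.21 CPM in control to 176 ± 9.32 CPM in KO (log2 fold change 0.43, SE 0.082, adjusted p = 5.91e-04).

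The 3 phosphofructokinases, which catalyse the committed step of glycolysis, diverged. PFKP, the platelet form, read 109.6, 138 and 136 CPM in control and 222, 219 and 194 CPM in KO, and rose (log2 fold change 0.73, SE 0.099, adjusted p = 2.72e-05). PFKL, the liver form, read 146, 190.3 and 184 CPM and 236, 228 and 212 CPM and rose less (log2 fold change 0.38, SE 0.099, adjusted p = 0.00646). PFKM, the muscle form, read 78.3, 90.0 and 85.1 CPM and 61.3, 72.6 and 65.8 CPM, the only glycolytic enzyme called lower (log2 fold change -0.34, SE 0.096, adjusted p = 0.00925). That call was lost without KO replicate 1, with an adjusted p of 0.0603. Per kilobase, PFKP went from 46.0% ± 0.502 in control to 56.0% ± 0.847 in KO of the 3 forms, and PFKM from 20.2% ± 1.17 in control to 11.7% ± 1.11 in KO, with no overlap between groups for either.

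The aldolases could not be judged. ALDOA, which splits fructose 1,6-bisphosphate and is usually among the most abundant transcripts of a cell, read only 0.784, 1.44 and 1.30 CPM in control and 1.21, 1.64 and 1.18 CPM in KO. Its exons share 53.5% of their bases with other annotated genes, 42.3% with AC093512.2 on the same strand, which itself had 2.00 to 3.99 CPM. How reads over more than 1 gene were counted is not given in the sources used here, so this value is uncertain as a level of ALDOA. ALDOC, the brain form, had 0.185, 0.186 and 0.583 CPM in control and 0.449, 0.575 and 0.318 CPM in KO. Neither passed the test, with adjusted p of 0.744 for ALDOA and 0.596 for ALDOC.

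The lower steps, from the triose phosphates to pyruvate, have 8 enzymes here. Of these, 7 rose and ENO3 did not pass, where 20.7% of all tested genes rose. The median log2 fold change of the 8 was 0.82. The difference from the upper steps was not tested, and PFKP there rose more than GAPDH and PKM here. TPI1, the triose-phosphate isomerase, read 203, 257 and 263 CPM in control and 448, 470.4 and 404 CPM in KO (log2 fold change 0.87, SE 0.10, adjusted p = 4.80e-06). GAPDH, which oxidises glyceraldehyde 3-phosphate and often serves as a reference gene, read 1588, 1619 and 1594 CPM and 2531, 2609 and 2539 CPM (log2 fold change 0.68, SE 0.057, adjusted p = 1.86e-07). The GAPDH groups stood far apart relative to the spread within each, so that a level set relative to GAPDH would read 1.60-fold lower in KO than on the scale used here.

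PGK1, which makes the first ATP of the pathway, read 315, 323 and 317 CPM in control and 643, 625 and 622 CPM in KO, a 1.98-fold rise (log2 fold change 0.99, SE 0.069, adjusted p = 2.61e-08). Its neighbours on the X chromosome were also higher, with a median log2 fold change of 0.45 over the 28 other tested genes within 5 Mb. PGAM1, the phosphoglycerate mutase, rose from 320.2 ± 29.5 CPM in control to 544 ± 8.81 CPM in KO (log2 fold change 0.76, SE 0.08, adjusted p = 1.84e-06). PKM, the pyruvate kinase of the last step, read 1654, 1886 and 1899 CPM and 2772, 2876 and 2676 CPM (log2 fold change 0.61, SE 0.067, adjusted p = 2.84e-06). Counts per gene do not separate its spliced forms PKM1 and PKM2.

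The enolases, which form phosphoenolpyruvate, split by form. ENO1, the ubiquitous one, read 1248, 1495 and 1519 CPM in control and 2669, 2688 and 2531 CPM in KO (log2 fold change 0.89, SE 0.075, adjusted p = 1.98e-07). ENO2, best known as the neuronal form, read 58.8, 68.5 and 61.5 CPM and 136, 127 and 118 CPM (log2 fold change 1.01, SE 0.093, adjusted p = 4.93e-07), a value at the edge of 2-fold that came to 0.96 without control replicate 1 or without KO replicate 1, and to 0.99 without control replicate 3. It was also under 2-fold with upper-quartile normalization (0.98) and with a minimum of 10 counts in each library (0.99). ENO3, the muscle form, was low in both groups, at 3.18, 4.55 and 4.48 CPM in control and 3.14, 4.31 and 1.41 CPM in KO, and the groups overlapped (log2 fold change -0.46, SE 0.33, adjusted p = 0.299). Its value rests on single KO libraries, at -0.13 without KO replicate 3 and -0.84 without KO replicate 2.

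**Figure D2:**
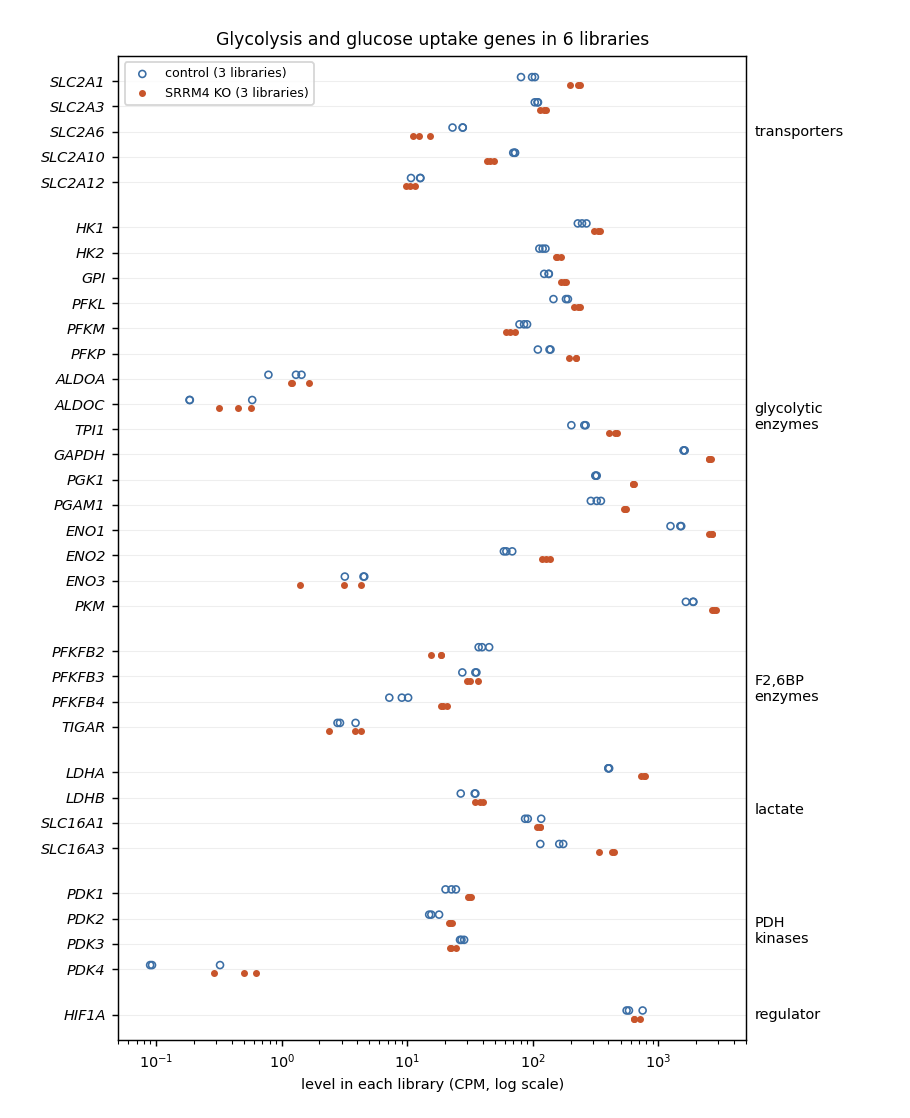
Level of each of the 34 genes in each library, in CPM on a log scale; open blue circles are the 3 control libraries and filled orange points the 3 KO libraries. The groups are apart for TPI1, GAPDH, PGK1, PGAM1, ENO1, ENO2, PKM, LDHA and SLC16A3, and overlap for ALDOA, ALDOC, ENO3, PFKFB3, TIGAR and HIF1A.

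Fructose 2,6-bisphosphate is the strongest activator of phosphofructokinase, and the bifunctional PFKFB enzymes make and remove it. PFKFB2, the heart form, read 44.9, 39.4 and 37.0 CPM in control and 18.7, 15.6 and 18.4 CPM in KO, a 2.30-fold fall and the largest among the 33 tested genes (log2 fold change -1.20, SE 0.12, adjusted p = 1.36e-06). PFKFB4, known as inducible by hypoxia, went the opposite way, from 7.20, 10.2 and 9.05 CPM in control to 18.5, 20.9 and 19.1 CPM in KO (log2 fold change 1.15, SE 0.15, adjusted p = 2.15e-05). No library of one group reached the range of the other for either gene. PFKFB3, the form of highest kinase activity, differed by less than its spread, with 27.4, 35.5 and 34.9 CPM in control and 31.7, 36.3 and 29.8 CPM in KO (log2 fold change -0.00084, SE 0.12). TIGAR, which removes fructose 2,6-bisphosphate, was low and did not pass, with 3.19 ± 0.596 CPM in control and 3.50 ± 0.995 CPM in KO (log2 fold change 0.14, SE 0.28, adjusted p = 0.734). Its exons share 45.6% of their bases with other genes.

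Within these 4 genes, per kilobase, PFKFB2 went from 34.5% ± 4.69 in control to 15.6% ± 2.36 in KO, and PFKFB4 from 12.5% ± 1.61 in control to 28.7% ± 0.237 in KO. PFKFB3 had the highest share in every library, 46.1% ± 4.75 in control and 47.9% ± 2.75 in KO. The control libraries thus held more PFKFB2 than PFKFB4, and the KO libraries more PFKFB4 than PFKFB2.

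Of the 4 genes of lactate formation and transport, LDHA and SLC16A3 rose and LDHB and SLC16A1 did not pass. Among all tested genes 20.7% rose. LDHA, the lactate dehydrogenase subunit that favours reduction of pyruvate, read 405, 399 and 400.4 CPM in control and 729, 783 and 772 CPM in KO, a 1.90-fold rise (log2 fold change 0.92, SE 0.068, adjusted p = 5.11e-08). LDHB, the subunit that favours the reverse reaction, had 32.0 ± 4.61 CPM in control and 37.6 ± 2.75 CPM in KO, with overlapping groups (log2 fold change 0.23, SE 0.12, adjusted p = 0.140), and 33.4% of its exon bases are shared with other genes. Without control replicate 1 its log2 fold change was 0.12. LDHA went from 85.8% ± 1.87 in control to 90.7% ± 0.744 in KO of the pair per kilobase. LDHA minus LDHB was not tested as a difference between genes.

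SLC16A3 (MCT4), the exporter of lactate in glycolytic cells, read 115, 162 and 175 CPM in control and 429, 439 and 334 CPM in KO. It had the largest rise of the 33 tested genes, 2.66-fold (log2 fold change 1.41, SE 0.14, adjusted p = 8.84e-07). The median log2 fold change of the 100 other tested genes within 5 Mb on chromosome 17 was 0.65, the highest of any of these genes. SLC16A1 (MCT1), which carries lactate in both directions, read 117, 86.8 and 91.1 CPM and 114, 108 and 114 CPM, and only control replicate 1 lay above the KO libraries (log2 fold change 0.19, SE 0.11, adjusted p = 0.178). Without that library it was called higher, at 0.33 with an adjusted p of 7.52e-04. Per kilobase, SLC16A3 went from 47.4% ± 9.26 in control to 67.7% ± 3.83 in KO of the pair.

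Of the pyruvate dehydrogenase kinases, which block the conversion of pyruvate to acetyl-CoA, 2 of 3 tested rose, where 20.7% of all tested genes did. PDK1, the form best known as a HIF-1 target, read 22.5, 24.4 and 20.2 CPM in control and 31.1, 30.2 and 32.1 CPM in KO (log2 fold change 0.48, SE 0.11, adjusted p = 0.00349), while the genes around it had a median log2 fold change of -0.32. PDK2, the most widely expressed form, rose from 16.1 ± 1.58 CPM in control to 21.9 ± 0.533 CPM in KO (log2 fold change 0.44, SE 0.13, adjusted p = 0.0101). Its neighbours had a like median of 0.42, and 38.6% of its exon bases are shared with a gene on the other strand, SAMD14. PDK3 read 28.4, 26.3 and 27.0 CPM and 24.2, 22.5 and 21.9 CPM, all 3 KO libraries lower, and missed the threshold (log2 fold change -0.25, SE 0.11, adjusted p = 0.0832). PDK4, induced by fasting, was too low to test, with 7, 2 and 2 counts in control and 14, 7 and 11 counts in KO. PDK3 had the highest share per kilobase in both groups, and went from 55.1% ± 1.72 in control to 42.7% ± 1.34 in KO.

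**Figure D3:**
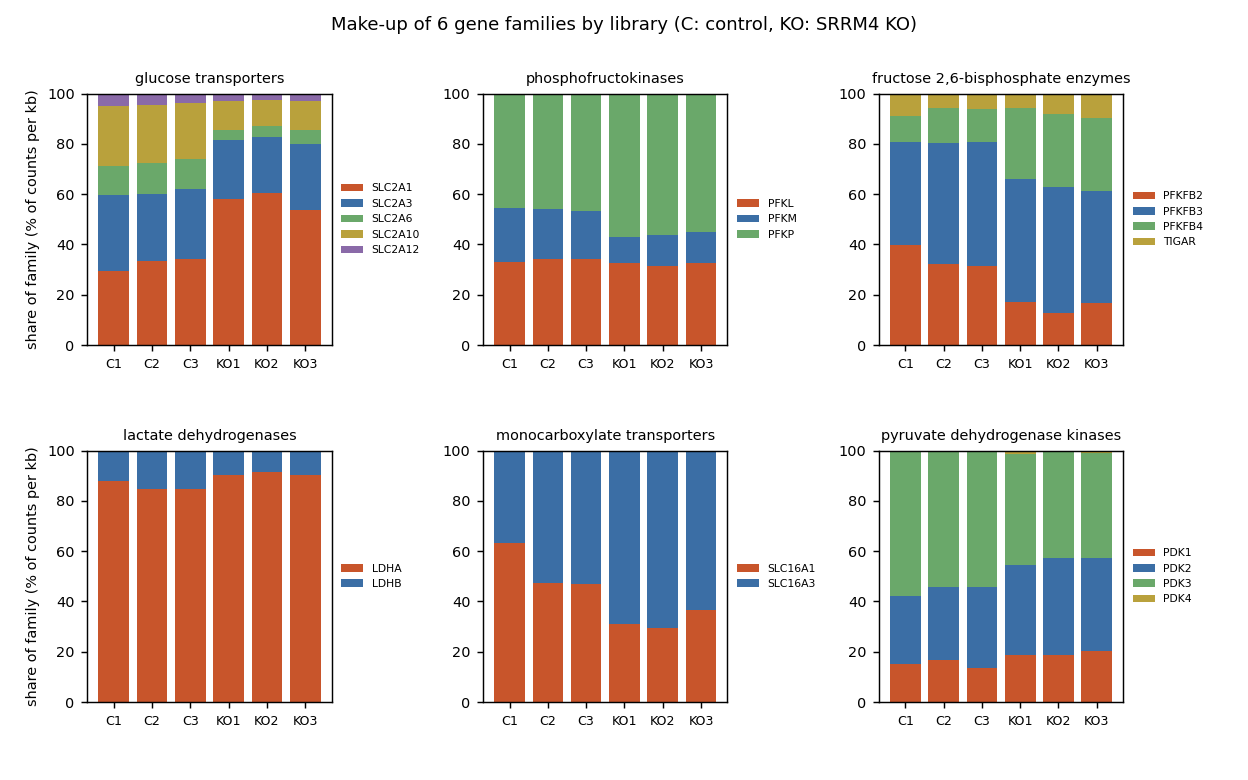
Share of each gene in the summed counts per kilobase of its family, in percent, for 6 families and each of the 6 libraries (C, control; KO, SRRM4 KO). SLC2A1, PFKP, PFKFB4, LDHA and SLC16A3 take a larger share in every KO library than in any control library, and SLC2A6, SLC2A10, PFKM and PFKFB2 a smaller one.

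Shares were tested for 23 genes of 9 families, and for 16 the groups did not overlap. In CPM, the groups did not overlap for 51.8% of all tested genes. Shares within a family depend on each other and are not separate results. PFKL held 33.8% of its family in control and 32.3% in KO, with no overlap, although its CPM was called higher. Each of the 16 had an exact two-sided permutation p of 0.10, the smallest 3 against 3 can give. Their adjusted p was 0.14 over the 23 shares, so no share can pass a threshold of 0.05 in this design.

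HIF1A, which encodes the oxygen-regulated subunit of HIF-1 and is controlled mostly at the protein level, read 749, 558 and 583 CPM in control and 634, 644 and 717 CPM in KO. The groups overlapped through control replicate 1, the highest of the 6 libraries (log2 fold change 0.079, SE 0.099, adjusted p = 0.566). Without that library HIF1A was called higher, at 0.22 with an adjusted p of 0.00431, and without control replicate 2 its value was -0.0036. Among 7 other tested regulators of the HIF pathway 3 fell and 4 were not called, where 20.9% of all tested genes fell and 41.6% were called in either direction. EPAS1, which encodes HIF-2α, read 1028, 1019 and 1033 CPM in control and 461, 466 and 444 CPM in KO (log2 fold change -1.17, SE 0.066, adjusted p = 2.58e-09). Their dimer partners ARNT and ARNT2 also fell, at -0.42 and -0.47 on the log2 scale. VHL and EGLN1, which target HIF for destruction, had log2 fold changes of -0.071 and 0.14 and were not called.

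Of 17 tested genes outside glycolysis that hypoxia induces, 8 rose and 4 fell, where 20.7% of all tested genes rose and 20.9% fell. Their median log2 fold change was 0.14. ANGPTL4, an inhibitor of lipoprotein lipase, was higher from a low level, 0.551 ± 0.146 CPM in control and 2.69 ± 0.334 CPM in KO (log2 fold change 2.28, SE 0.39, adjusted p = 2.51e-04). BNIP3, a receptor for mitophagy, rose from 56.7 ± 0.951 CPM in control to 109 ± 2.60 CPM in KO (log2 fold change 0.94). VEGFA, the angiogenic factor, was not called, at -0.079 with an adjusted p of 0.532. CA12, a carbonic anhydrase, fell, at -0.72.

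In the pathways that branch from glycolysis genes moved both ways. Of 8 tested genes of the pentose phosphate pathway 2 rose and 2 fell, close to the 20.7% and 20.9% of all tested genes. TKT, the transketolase, rose (log2 fold change 0.59, SE 0.093, adjusted p = 1.13e-04), as did PGD (log2 fold change 0.39), while H6PD, the hexose-6-phosphate dehydrogenase of the endoplasmic reticulum, fell (-0.71). Of 11 genes of pyruvate transport into mitochondria and of the pyruvate dehydrogenase complex 4 rose and 2 fell, against the same background. They include PDHA1, the subunit of pyruvate dehydrogenase that the PDK kinases phosphorylate, at 0.66. PDP1, the phosphatase that reverses this, also rose, at 0.57, and PDP2, a second phosphatase, fell, at -0.39, a call lost without KO replicate 1 (adjusted p = 0.0672). Of 3 tested gluconeogenic genes, with PC again among them, only PCK2 fell, where 20.9% of all tested genes did. PCK2, the mitochondrial phosphoenolpyruvate carboxykinase, had a log2 fold change of -1.15 (SE 0.095, adjusted p = 1.50e-07). Of 7 genes of glucose sensing and control of uptake 2 fell and 5 were not called, against a background of 20.9% lower. ARRDC4, a paralog of TXNIP, fell with a log2 fold change of -0.80. TXNIP, which lowers glucose uptake and responds to glucose, was not called, at -0.17 with an adjusted p of 0.214.

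A further 28 genes of glycolysis and of glucose or lactate transport, mostly paralogs of the 34, were also read. Of these, 17 had at most 10 counts in any library and were not tested. Of the 11 tested, 3 rose and 6 fell, where 20.7% of all tested genes rose and 20.9% fell. SLC2A5, the fructose transporter, went from 2.87 ± 0.478 CPM in control to 0.534 ± 0.149 CPM in KO (log2 fold change -2.41, SE 0.39, adjusted p = 1.51e-04), and SLC2A11 from 7.98 ± 0.562 CPM in control to 3.28 ± 1.34 CPM in KO (log2 fold change -1.28). SLC2A9, a urate transporter named after its values were seen, had 22, 26 and 26 counts in control and 0, 1 and 0 counts in KO. PGAM4, a near-identical copy of PGAM1 whose counts may hold PGAM1 reads, was called higher from 0.851 ± 0.305 CPM in control to 2.00 ± 0.646 CPM in KO, with an adjusted p of 0.0325. That call was lost in 4 of the 6 fits that left out 1 library.

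Genes of cycling cells moved in the same direction as the glycolytic enzymes. MKI67, TOP2A, CDK1, CCNB1, BUB1 and AURKA all rose beyond 2-fold, where 5.45% of all tested genes did, with a median log2 fold change of 1.32. Their summed level ran from 445 to 539 CPM in control and from 1149.6 to 1212 CPM in KO. AURKA, a mitotic kinase, had the largest rise of the 6 (log2 fold change 1.73, SE 0.092, adjusted p = 1.41e-09). The part of this difference in the change of the glycolysis genes was not tested.

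**Figure D4:**
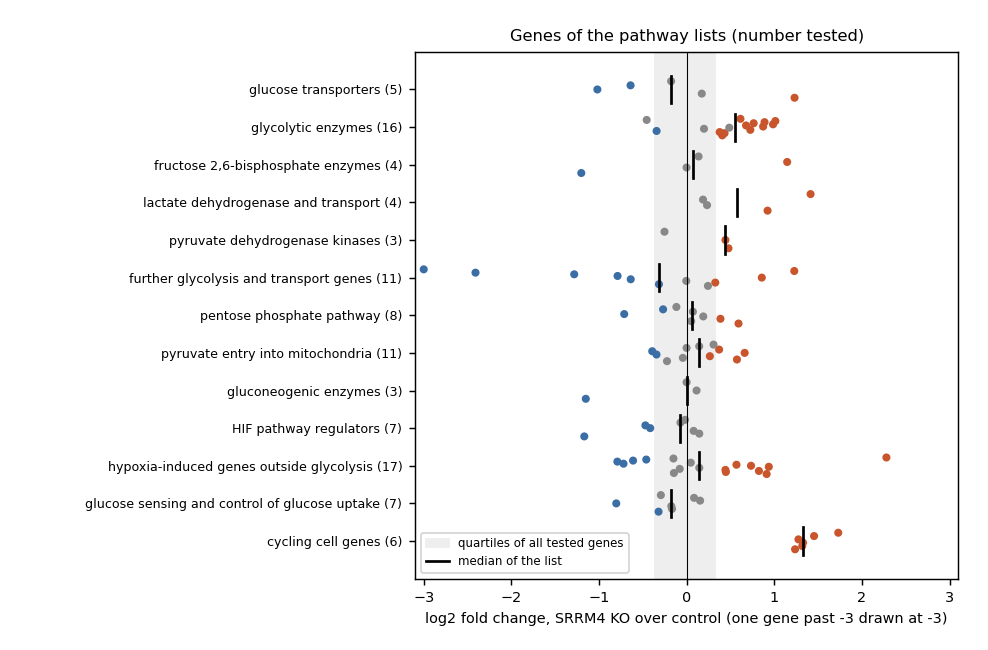
Log2 fold change (KO over control) of the tested genes of each list, with the number tested in brackets; orange, higher, blue, lower, and grey, not called; black bars are list medians and the grey band spans the quartiles of all 15341 tested genes. The glycolytic enzymes and the cycling genes have medians of 0.55 and 1.32, and the HIF pathway regulators (HIF1A left out) one of -0.07. The band describes single genes and is no test of a median. EGLN1 and PC are each plotted in 2 lists, and SLC2A9 is drawn at -3.

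Because the KO line is 1 clone, the genes around each gene were also read. The median log2 fold change of the tested genes within 5 Mb ran from -0.32 around PDK1 to 0.65 around SLC16A3, with a middle value of 0.02 over the 33 genes. TPI1, GAPDH and ENO2 lie close together on the short arm of chromosome 12, and the genes around them had medians of -0.092, -0.057 and -0.092, against rises of 0.87, 0.68 and 1.01 in these genes. Their windows hold mostly the same neighbours and are not separate readings. SLC2A3 and TIGAR on the same arm, whose windows overlap those, had neighbour medians of -0.13 and -0.13 and were not called. By the table's coordinates (GRCh38), SLC2A1 lies at chr1:42925375-42959176, SLC16A3 at chr17:82228397-82261129, PFKFB4 at chr3:48517684-48562015, PFKFB2 at chr1:207034366-207081024 and SLC2A6 at chr9:133471095-133479137. Around SLC2A1 the median was 0.22, around LDHA 0.12, and around ENO1 0.077.

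Since many of these genes rose together, their promoters were searched on either strand for ACGTG and GCGTG, the forms of the core that HIF binds. The windows are RefSeq's (GRCh38.p14) and run from 250 bases before to 50 bases after a transcript's start. One or more windows were given for 31 of the 34 genes. ACGTG was found in 22 of their 61 windows, or 36.1%, where 21.4% of all 34943 windows hold it. It was in 32.4% of the windows of genes that rose, 33.3% of those of genes that fell and 46.7% of those of the rest. Counted by gene, at least 1 window held it for 11 of 18 genes that rose, 2 of 3 that fell and 5 of 10 of the rest, so the order of the groups differed between both ways of counting. With either form, the share was 62.3% of the 61 windows and 48.4% of all windows. By gene it was 17 of 18 that rose, 3 of 3 that fell and 8 of 10 of the rest. A match is only a run of letters, CACGTG holds ACGTG on both strands, and GCGTG was searched only after values were known.

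The windows of the 4 genes that rose beyond 2-fold, and of PGK1 and LDHA, are printed to show how unlike they are in this respect. They were chosen after the values were seen, and for a gene with several windows the one with the most ACGTG matches is shown. Sequences run 5′ to 3′ on the strand of the gene, and capitals mark ACGTG or its complement CACGT, and likewise GCGTG or its complement CACGC. LDHA at chr11:18394313-18394612 (plus strand) has 5 ACGTG matches and 1 GCGTG match, and PGK1 at chrX:78103998-78104297 (plus) has 3 and 1. SLC16A3 at chr17:82228792-82229091 (plus) has 2 ACGTG matches and ENO2 at chr12:6914330-6914629 (plus) 1, with 0 of GCGTG in both. SLC2A1 at chr1:42958819-42959118 (minus) and PFKFB4 at chr3:48556754-48557053 (minus) have 0 ACGTG matches and 1 GCGTG match each.
LDHA: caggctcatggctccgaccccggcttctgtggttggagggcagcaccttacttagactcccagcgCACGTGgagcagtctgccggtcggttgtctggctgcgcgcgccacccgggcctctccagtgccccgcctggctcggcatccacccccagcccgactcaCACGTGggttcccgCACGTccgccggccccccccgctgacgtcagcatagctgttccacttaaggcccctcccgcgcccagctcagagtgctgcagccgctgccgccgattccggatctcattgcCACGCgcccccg
PGK1: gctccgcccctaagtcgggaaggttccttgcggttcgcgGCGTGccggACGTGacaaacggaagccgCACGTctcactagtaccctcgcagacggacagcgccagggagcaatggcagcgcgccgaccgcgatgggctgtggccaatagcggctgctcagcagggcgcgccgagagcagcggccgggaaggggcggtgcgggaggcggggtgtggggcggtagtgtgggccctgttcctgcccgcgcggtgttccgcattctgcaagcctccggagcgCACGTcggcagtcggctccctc
SLC16A3: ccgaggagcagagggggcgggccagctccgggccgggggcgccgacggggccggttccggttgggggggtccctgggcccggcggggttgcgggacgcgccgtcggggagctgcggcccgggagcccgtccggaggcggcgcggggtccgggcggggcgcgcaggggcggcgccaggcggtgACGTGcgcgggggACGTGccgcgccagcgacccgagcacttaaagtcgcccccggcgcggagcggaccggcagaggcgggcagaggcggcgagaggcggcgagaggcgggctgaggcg
ENO2: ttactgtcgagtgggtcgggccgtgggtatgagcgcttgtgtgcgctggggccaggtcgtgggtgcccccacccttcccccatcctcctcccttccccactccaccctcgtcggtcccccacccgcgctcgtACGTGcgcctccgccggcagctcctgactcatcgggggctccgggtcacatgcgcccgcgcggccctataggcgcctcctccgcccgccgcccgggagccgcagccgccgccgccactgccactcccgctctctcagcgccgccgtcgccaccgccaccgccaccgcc
SLC2A1: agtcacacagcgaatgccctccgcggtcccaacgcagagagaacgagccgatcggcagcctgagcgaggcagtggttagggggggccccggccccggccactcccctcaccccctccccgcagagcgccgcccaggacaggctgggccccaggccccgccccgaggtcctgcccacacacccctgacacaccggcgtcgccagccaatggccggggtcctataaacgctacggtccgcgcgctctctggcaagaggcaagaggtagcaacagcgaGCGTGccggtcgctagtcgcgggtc
PFKFB4: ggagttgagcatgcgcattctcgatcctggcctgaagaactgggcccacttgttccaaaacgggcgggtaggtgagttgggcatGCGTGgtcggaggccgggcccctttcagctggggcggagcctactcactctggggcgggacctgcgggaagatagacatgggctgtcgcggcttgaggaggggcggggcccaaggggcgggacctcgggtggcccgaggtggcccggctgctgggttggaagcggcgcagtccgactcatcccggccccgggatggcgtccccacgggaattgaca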

How the data were processed

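Non-stranded mRNA-seq libraries (NEBNext Ultra, NovaSeq) were grouped by genotype and title. The deposited values are unnormalized read counts for each gene, which the authors made from their reads, and their processing notes name HISAT2 2.0.5, featureCounts 1.5.0-p3 and DESeq2. The genome build is not given in the sources used here. All 58735 gene IDs and their positions matched GENCODE 29 (GRCh38), from which exon overlaps were taken. Genes with overlapping exons or near-identical copies carry the uncertainty of that counting.

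On the whole table, edgeR 4.0.16 (R 4.3.3) was run with TMM, filterByExpr, a prior count of 0.125 and the quasi-likelihood test of the 3 KO against the 3 control libraries, with p-values adjusted by Benjamini-Hochberg over 15341 genes. Calls needed an adjusted p under 0.05, and calls beyond 2-fold also a log2 fold change over 1 or under -1. The standard error was the log2 fold change over the square root of F. Depth was even, and limits from a count of 0 cover counting error only. Sums and family shares per kilobase were compared by exact permutation over libraries. The procedure was tested on simulated counts.

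The members and all lists were chosen with earlier results of these data known. Named besides the 34 members are SRRM4, the cell type markers, and up to 3 called genes per other list with the largest change and a mean of at least 1 CPM. SLC2A9, VEGFA, CA12, VHL, EGLN1, TXNIP and the remaining cycling genes were named after their values were seen, and a few genes of these lists are not reported here. Alternatives were DESeq2 1.42.0, other size factors and filters, glmTreat, a replicate block, and each library left out.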

Additional observations from a re-analysis of the deposited data

How the results depend on the processing

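The counts of 18 genes higher and 4 lower were also obtained with DESeq2, with DESeq2's size factors, with upper-quartile normalization, without a filter, with a minimum of 10 counts in each library and with a replicate block. Leaving out 1 library at a time gave 18 to 21 higher, 3 to 4 lower, 3 to 4 higher beyond 2-fold and 1 to 2 lower beyond 2-fold, a median log2 fold change of 0.36 to 0.44, and a log2 ratio of the summed glycolytic enzymes of 0.65 to 0.74. Rises beyond 2-fold numbered 3 with upper-quartile normalization and with the 10-count minimum. A test against a 2-fold change (glmTreat) gave 1 higher and 0 lower. With 7 genes that share over 10% of their exon bases left out, an alternative chosen after seeing the data, 16 rose and 4 fell. Over 2 Mb, the median over the neighbour medians was 0.033 in place of 0.02. Deviations from the group mean correlated at -0.086, 0.109 and -0.102 between same-numbered libraries. With 3 libraries per group these values cannot exclude a pairing. The sample titles state none, and the main fit used none. With the replicate block, 3070 of all tested genes were higher and 3055 lower, against 3171 and 3213 without it, and not every sample correlated best with its own number.

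Some values turned direction. PFKFB3 was 0.0029 with the replicate block, 0.00098 with DESeq2, and -0.11 to 0.063 without 1 library. The ranges without 1 library were -0.024 to 0.37 for ALDOA, -0.037 to 0.34 for TIGAR and -0.0036 to 0.22 for HIF1A. In percentage points of a family (KO minus control), they were -0.819 to 1.60 for HK1, -11.2 to 0.214 for ALDOA, -0.981 to 3.38 for PFKFB3 and -0.0893 to 2.02 for TIGAR. The cause of these changes was not tested. Depth limits ALDOC and PDK4, with at most 14 counts in any library, and the untested genes of the other lists.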
